A study of Mus musculus with 7 samples.

Results

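Retinoic acid is made, bound, read and destroyed by a small set of proteins, and 10 of the genes that encode them were followed here through single cells of the mouse neural crest lineage. The 10 genes were taken by symbol from the 32285 genes in the count tables. They are the synthesis genes Rdh10 and Aldh1a2, the degradation genes Cyp26a1, Cyp26b1 and Cyp26c1, the binding protein genes Crabp1 and Crabp2, and the receptor genes Rara, Rarb and Rarg. Each was read in 7 droplet libraries, in which cells were put into classes by UMIs (unique molecular identifiers, the counted RNA molecules) of other genes. A cell was mesenchymal when Twist1, Prrx1 and Prrx2 together gave at least 2 UMIs and when Sox10, the neural genes and the neuronal genes each gave fewer than 2. Mesenchymal cells were divided into Hox-negative cells, with no UMI of Hoxa2, Hoxa3, Hoxb3 or Hoxd3, Hoxa2-only cells, and Hox3 cells, with at least 1 UMI of Hoxa3, Hoxb3 or Hoxd3. The remaining classes were Sox10 cells, neural progenitor cells (Sox2, Sox3 and Pax6) and neuronal cells (Elavl3, Elavl4 and Stmn2). Sox10 cells had at least 2 UMIs of Sox10 and fewer than 2 each of the mesenchymal and the neuronal genes. Cells with at least 2 UMIs of Sox10 and at least 2 of the mesenchymal genes were set apart as double cells. Double cells and cells that met no gate did not enter the main tests. Values are CPM, the UMIs of a gene summed over all cells of 1 class in 1 library and given per 1000000 UMIs of all genes in that sum.

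The study sorted EGFP-positive, living cells from dissected embryos (strain labelled Swiss-Webster, a mixed background per the methods) in order to learn how the neural crest that builds the pharyngeal arches and outflow tract changes with time and without Tbx1. All 7 libraries carried Wnt1-Cre/+ and ROSA-EGFP f/+, so that cells which once expressed the Wnt1 driver, in the neural crest and the dorsal neural tube, kept EGFP. The control group had no other allele and comprised 1 library at E8.5 (anterior part of the embryo), 1 at E9.5 (pharyngeal apparatus and heart) and 2 at E10.5 (arches 2 to 6 and heart). The Tbx1 null group comprised 1 library at E9.5 and 2 at E10.5 (tissue below the first arch, and heart). The titles of the 3 null libraries read Tbx1null while their genotype field reads Wnt1-Cre/+;Tbx1+/-;ROSA-EGFP f/+, and they are called null here as in their titles and in the methods of the study. The loss of Tbx1 was not restricted to the neural crest, since the allele was constitutive. Each library came from pooled embryos, so that the spread between the 2 libraries of a group is a spread between pools. The kit was v2 at E8.5, v3 for the null library at E9.5 and for null replicate 1 at E10.5, and v3.1 for the other 4 libraries. Kit and genotype therefore cannot be told apart at E9.5.

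Retinoic acid is a diffusible derivative of vitamin A. RDH10 oxidizes retinol to retinaldehyde and ALDH1A2 oxidizes retinaldehyde to retinoic acid, whereas the CYP26 enzymes hydroxylate retinoic acid and so clear it from the tissue. CRABP1 and CRABP2 carry retinoic acid in the cytoplasm, and the receptors RARA, RARB and RARG bind DNA as heterodimers with RXR proteins at direct repeats of a short half-site. In the hindbrain and the posterior pharyngeal arches the signal is known to set anterior and posterior identity through Hox genes, and both too much and too little of it disturb the arch arteries and the outflow tract. Rarb and Cyp26a1 are textbook targets of the receptors.

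The promoters of these target genes are shown because they carry the repeat that the receptors read. The 250 bases before the RefSeq start site and the 50 after it (build GRCm38.p6, the same assembly as mm10) were searched on both strands. The search was for direct repeats of AGGTCA or AGTTCA or GGGTCA or GGTTCA with a spacer of 1, 2 or 5 bases. Only the 250 bases before the start are printed. In the following lines the half-sites found are in capitals, and the promoter of Cyp26c1, which lies beside Cyp26a1, is given for comparison.
Cyp26a1, chr19:37697558-37697807, plus strand: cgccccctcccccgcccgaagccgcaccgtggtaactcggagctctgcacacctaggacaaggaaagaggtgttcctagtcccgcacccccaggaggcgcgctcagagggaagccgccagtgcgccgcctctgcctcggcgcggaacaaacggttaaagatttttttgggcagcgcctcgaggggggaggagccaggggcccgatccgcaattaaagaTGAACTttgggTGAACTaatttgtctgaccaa
Rarb, chr14:16575477-16575726, minus strand: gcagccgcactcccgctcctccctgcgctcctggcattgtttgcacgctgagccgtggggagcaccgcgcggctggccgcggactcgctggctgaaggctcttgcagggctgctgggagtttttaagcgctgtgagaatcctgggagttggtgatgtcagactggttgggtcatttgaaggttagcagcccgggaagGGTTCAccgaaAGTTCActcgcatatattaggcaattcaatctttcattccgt
Cyp26c1, chr19:37685430-37685679, plus strand: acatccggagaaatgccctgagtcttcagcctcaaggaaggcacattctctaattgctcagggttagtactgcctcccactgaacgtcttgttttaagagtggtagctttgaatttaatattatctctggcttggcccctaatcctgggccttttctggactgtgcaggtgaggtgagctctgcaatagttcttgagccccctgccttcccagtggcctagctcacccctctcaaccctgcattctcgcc
Windows were listed for 8 of the 10 genes, 12 windows in all, and none for Crabp2 and Rdh10. A repeat was found in 2 windows, both with a spacer of 5 bases. In Rarb it read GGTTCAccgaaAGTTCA and lay 53 to 37 bases before the start (chr14:16575513-16575529). In Cyp26a1 it read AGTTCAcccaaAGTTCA on the opposite strand, 32 to 16 bases before the start (chr19:37697776-37697792). Among 32851 windows of all genes, 193 (0.588%) held a repeat with any of the 3 spacers and 32 (0.0974%) held one with the spacer of 5 bases. A match of letters is a description and does not show that a receptor is bound, and other elements of these genes lie outside the window.

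Cyp26a1 (ENSMUSG00000024987, chr19:37697798-37701536, plus strand) and Cyp26c1 (ENSMUSG00000062432, chr19:37685581-37693398, plus strand) are neighbours with 4399 bases between them. Cyp26b1 (ENSMUSG00000063415) lies at chr6:84571414-84593908 on the minus strand. The synthesis genes lie at chr1:16105774-16133734, plus strand, for Rdh10 (ENSMUSG00000025921) and chr9:71215789-71296243, plus strand, for Aldh1a2 (ENSMUSG00000013584). Crabp1 (ENSMUSG00000032291, chr9:54764748-54773110) and Crabp2 (ENSMUSG00000004885, chr3:87948666-87953376) are both on the plus strand. The receptor genes lie at chr11:98927818-98974942, plus strand (Rara, ENSMUSG00000037992), chr14:16430839-16819156, minus strand (Rarb, ENSMUSG00000017491) and chr15:102234938-102257517, minus strand (Rarg, ENSMUSG00000001288). In the annotation Rarb overlaps Top2b and the antisense gene Gm48162 on the opposite strand, Aldh1a2 overlaps the pseudogene Gm48124 on the opposite strand, and Rara holds the small RNA gene Gm22061 on its own strand.

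The libraries held 140264662 to 234844769 UMIs, and 5587 to 9555 cells per library passed the filters, with a median of 14824 to 22882 UMIs per cell. Between 0 and 25 barcodes were shared by a pair of libraries. Tbx1 itself was scarce in this lineage, at 0.577, 1.04, 5.82 and 4.57 CPM over all barcodes in the control libraries of E8.5, then E9.5, then E10.5 (replicates 1 and 2), and at 0.660, 2.89 and 2.93 CPM in the null libraries at E9.5 and E10.5. These are counts of the whole gene, which do not show whether the transcript was intact. In every library, the summed CPM of the marker genes kept out of the gates was highest in the class that they mark. There were 5 genes each for mesenchymal, Sox10, neural progenitor and neuronal cells. For the mesenchymal markers, the highest sum could be in any of the 3 mesenchymal classes. Genes were not checked singly. Between libraries the sums overlapped, with the mesenchymal sum up to 430 CPM in neural progenitors and down to 209 CPM in Hox-negative mesenchyme. Null replicate 2 at E10.5 stood apart in its makeup, with 44.9% neuronal and 12.4% mesenchymal cells against 12.3 to 25.7% and 27.4 to 68.4% in the other 3 libraries of that day. Its mesenchymal classes also held 143 to 154 CPM of the 5 neuronal markers, against 24.4 to 45.4 CPM in the other 3 libraries at E10.5. Double cells, left out of the Sox10 class, numbered 1670 at E8.5 against 301 Sox10 cells, and 724 (control) and 646 (null) at E9.5. At E10.5 they numbered 12 and 21 in the control and 145 and 159 in the null libraries. Sox10 cells there numbered 123 and 371 (control) and 603 and 165 (null). In sums of cells, fewer cells that express a gene and less RNA per cell cannot be told apart. Hox3 cells were 840 of 2786 and 1503 of 6225 mesenchymal cells in the control libraries at E10.5. In the null libraries of that day they were 1169 of 2198 and 551 of 801. Genotype values of all mesenchymal cells at E10.5 therefore hold this difference in makeup, and its part was not tested.

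At E10.5 the genes differed in the class that held most of them. Cyp26a1 and Rarg belonged to the mesenchyme, Cyp26b1, Rarb, Crabp1 and Crabp2 were most abundant in neural cells, and Rdh10 was most abundant in Hox3 mesenchyme. Between neural progenitor and all mesenchymal cells of the same library, 6 genes were higher and 3 lower, of the 9 that could be fitted, while 54.8% of all 14648 genes tested differed. Between Sox10 and all mesenchymal cells, 2 were higher and 4 lower of 9, against 43.8% of 13921 genes. With such backgrounds, a count of differing genes says little about the pathway, and the size and place of each gene's level are given below. Cells with a Hox3 UMI were a larger share of neural progenitors and of Sox10 cells than of mesenchyme in each library at E10.5. In control replicate 1 they were 949 of 1204 neural progenitors, 63 of 123 Sox10 cells and 840 of 2786 mesenchymal cells. The part of this makeup in the differences was not tested.

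**Figure D1:**
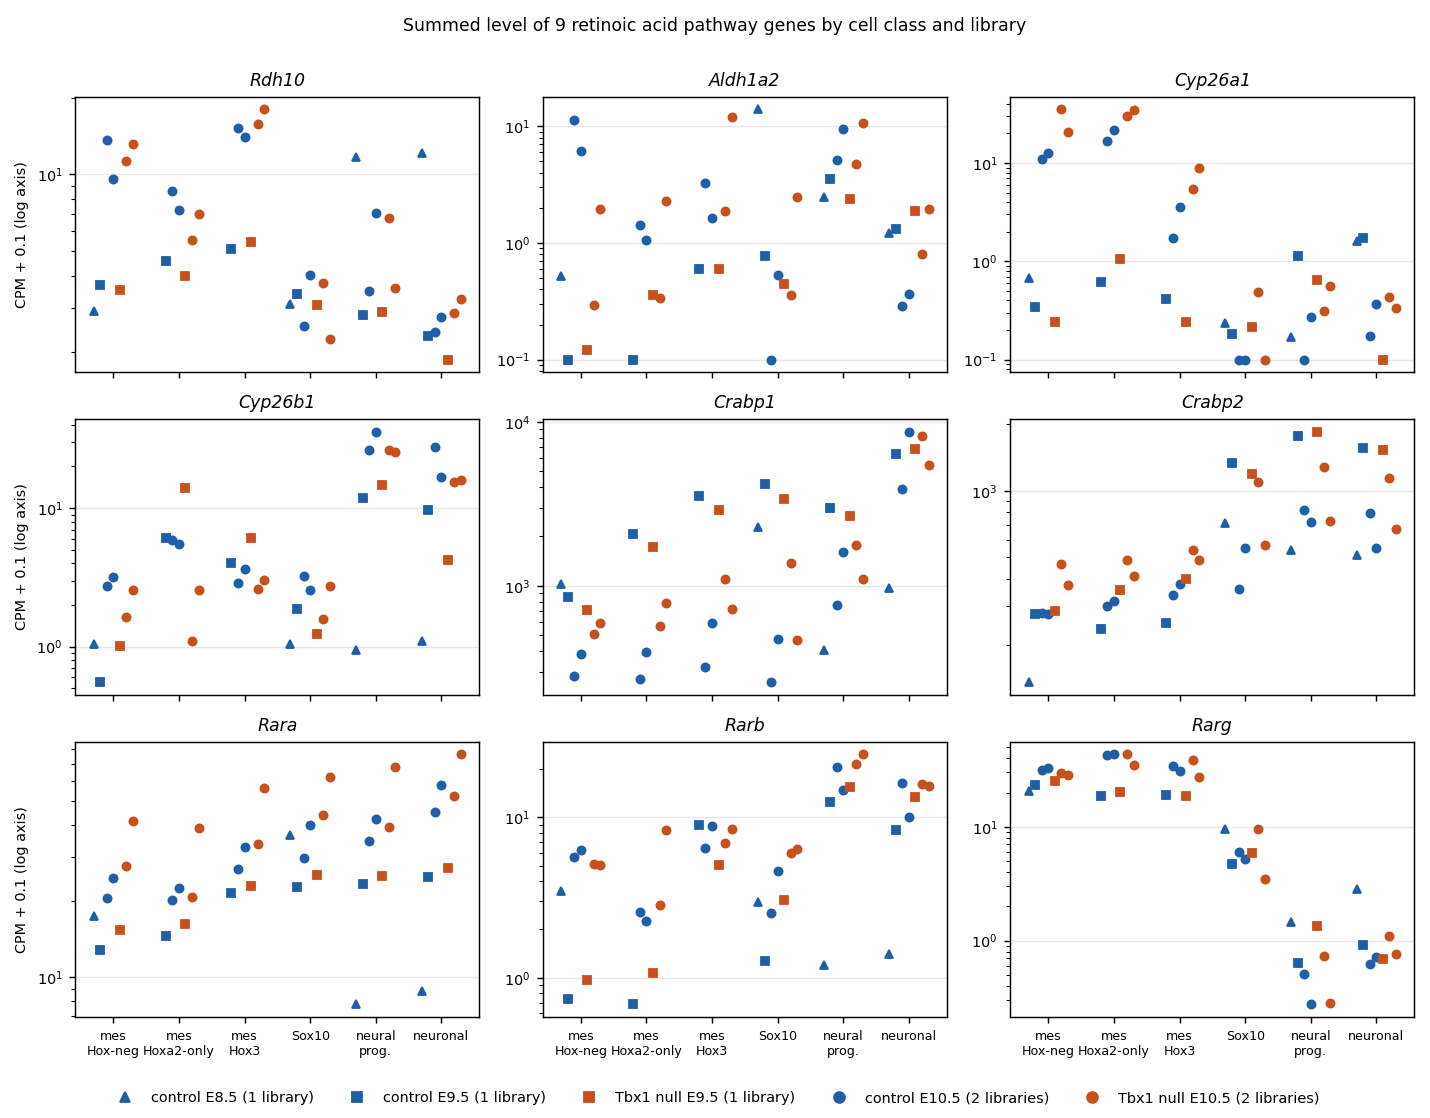
CPM (plus 0.1, log axis) of 9 genes in 6 cell classes, with 1 point per library, blue for control and orange for Tbx1 null, and the shape showing the embryonic day. Rarg and Cyp26a1 were high in the 3 mesenchymal classes at E10.5 and near the bottom of the axis in neural cells, whereas Cyp26b1 and Rarb were highest in neural cells. Classes with fewer than 50 cells have no point.

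Rdh10, whose product starts the synthesis, followed the posterior mesenchyme. In Hox3 mesenchymal cells at E10.5 it stood at 15.1 and 14.0 CPM in the control libraries and at 15.7 and 17.9 CPM in the null libraries. In Hoxa2-only cells of the same libraries it stood at 8.49, 7.14, 5.44 and 6.87 CPM, so that the 2 classes did not overlap. The difference was 2.13-fold (log2 fold change 1.09 ± 0.12 SE, adjusted p = 0.000741) and was called under all 11 alternatives. Hox-negative cells lay between them at 9.47 to 13.6 CPM, overlapping with neither. Rdh10 was 3.55-fold lower in Sox10 cells than in mesenchyme (adjusted p = 4.09e-05) and 2.46-fold lower in neural progenitors (adjusted p = 0.00225). The exception was E8.5, where neural progenitor and neuronal cells of the single library held 11.6 and 11.98 CPM and mesenchymal cells 3.72 CPM. Within neural progenitors at E10.5, cells without Hox UMIs held 7.17, 16.6 and 29.9 CPM (both control libraries and null replicate 1) and Hox3 cells of the same libraries 3.09, 6.26 and 4.78 CPM. These values were higher without Hox in each of the 3 libraries and were not tested.

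Aldh1a2, the main retinaldehyde dehydrogenase of the early embryo, was low in this lineage and patchy. At E8.5, 83 Sox10 cells with a Hox3 UMI held 34.7 CPM (72 UMIs, exact 95% interval 27.1 to 43.7 CPM). In the same library, 189 Sox10 cells without a Hox UMI held 2.16 CPM (10 UMIs, 1.03 to 3.97 CPM). The 14 mesenchymal and 24 neural progenitor cells with a Hox3 UMI were too few for a value, and double cells were not split by Hox. Whether the level was particular to Sox10 cells among posterior cells therefore cannot be read. At E9.5, Sox10 cells with a Hox3 UMI held 1.48 CPM (control, 6 UMIs in 158 cells) and 0.708 CPM (null, 3 UMIs in 186 cells). There was 1 library at E8.5, so these intervals cover counting error only and no test across libraries exists. The same 83 cells held 11.6 CPM of the 5 paraxial mesoderm markers, all of it Tcf15, and 0 CPM of the 5 lateral mesoderm markers. In mesenchyme Aldh1a2 was at or near 0 at E9.5 and appeared by E10.5.

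In Hox-negative mesenchymal cells at E10.5, Aldh1a2 stood at 11.1 and 6.01 CPM in the control libraries (151 and 184 UMIs in 795 and 2130 cells) and at 0.192 and 1.86 CPM in the null libraries (1 and 3 UMIs in 254 and 84 cells). The genotypes did not overlap. The fall was 14.3-fold (log2 fold change -3.83 ± 0.70 SE, adjusted p = 0.0262), and the upper end of its 95% interval was -2.32 on the log2 scale. It was the 1 gene of 9 called in this class, where 0.796% of 12438 genes were called. It rested on few molecules on the null side, and the call was lost under 6 of 14 alternatives. After thinning, the adjusted p was 0.442, and its fold is not given because both null libraries were then at 0. The highest adjusted p was 0.679, with the E9.5 libraries added. The call was also lost without null replicate 1 (log2 fold change -2.28, adjusted p = 0.256) and without null replicate 2 (-5.51, adjusted p = 0.0525). After thinning to 5000 UMIs per cell, 35 of 687 and 53 of 2054 control cells held a UMI, and 0 of 243 and 0 of 82 null cells, which allow up to 1.51% and 4.40% of cells with a UMI at that depth by the exact interval and set no limit on cells that express the gene. Markers of other cells varied between these libraries, with the genotypes overlapping. The lateral mesoderm gene Osr1 held 24.1 and 15.1 CPM in the control libraries and 2.50 and 19.2 CPM in the null libraries of this class, and the other 4 genes of its list at most 2.51 CPM. The 5 cardiomyocyte markers summed to 204 and 4.83 CPM (control) and 26.0 and 1.86 CPM (null). The first arch was removed at this day and the boundary of the dissection is worded differently for the genotypes. The part of these differences in the result was not tested. A cell whose Hox transcripts were missed also fell into the Hox-negative class. Hox-negative cells had the lowest median UMIs of the 3 mesenchymal classes in each library at E10.5 (13687.5 to 20313.5).

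In Hox3 mesenchymal cells Aldh1a2 went the other way without a call, at 3.14 and 1.53 CPM (control) and 1.77 and 11.9 CPM (null). Null replicate 2 stood above the other 3 libraries, and its Hox3 cells also held the most Osr1 (47.0 CPM, against 9.16 to 24.3). Hox3 cells exceeded Hoxa2-only cells in each of the 4 libraries (0.236 to 2.20 CPM in Hoxa2-only cells), a 2.80-fold difference (adjusted p = 0.0173) that was lost without control replicate 1 (adjusted p = 0.0767) and after thinning (adjusted p = 0.219). Neural progenitors held 4.65 to 10.6 CPM, with the genotypes overlapping. They exceeded all mesenchymal cells 2.08-fold (adjusted p = 0.0237), a call lost without control replicate 2 (adjusted p = 0.0895), without null replicate 1 (adjusted p = 0.106) and after thinning (adjusted p = 0.135).

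Cyp26a1, which encodes the degrading enzyme best known from the anterior and posterior ends of the embryo, switched on in the mesenchyme between E9.5 and E10.5 and was highest in the anterior part of it. In Hoxa2-only cells it stood at 0.517 (control) and 0.968 CPM (null) at E9.5, and at 16.5 and 21.7 CPM (control) and 29.6 and 34.3 CPM (null) at E10.5. The rise was 26.6-fold (log2 4.73 ± 0.29 SE, adjusted p = 0.00024). In Hox3 cells it rose 13.6-fold, from 0.312 and 0.143 CPM to 1.62, 3.47, 5.40 and 8.73 CPM (log2 3.77 ± 0.64 SE, adjusted p = 0.00382). Both calls held under every alternative. At E10.5 the gene was 5.94-fold lower in Hox3 than in Hoxa2-only cells (log2 -2.57 ± 0.16 SE, adjusted p = 2.15e-05), in each of the 4 libraries and under all 11 alternatives, which is the reverse of Rdh10. Outside the mesenchyme it was nearly silent. Sox10 cells and neural progenitors held 0 to 0.460 CPM at E10.5, from 0 to 6 UMIs a library, against 10.4 to 17.1 CPM in all mesenchymal cells. Both differences were called (adjusted p = 2.37e-07 and 2.33e-06), and their folds are not given because they rest on these few UMIs.

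Cyp26a1 was higher in the null than in the control libraries in all 3 mesenchymal classes, with no overlap, although no class passed the test. The classes come from the same 4 libraries and are not separate sightings. Of the 10 genes, the null libraries lay above both controls for 4 and below for 4 in Hox-negative cells. These numbers were 4 and 2 in Hoxa2-only and 5 and 0 in Hox3 cells, and the share of all genes that separated so was not counted. In Hox-negative cells it stood at 10.99 and 12.6 CPM (control) and at 35.0 and 20.5 CPM (null), a 2.30-fold difference (log2 1.20 ± 0.28 SE, adjusted p = 0.0679). In Hoxa2-only cells the difference was 1.51-fold (adjusted p = 0.405) and in Hox3 cells 2.45-fold (adjusted p = 0.345). The Hox-negative difference was called under 2 of 14 alternatives, with the replicate number as a block (adjusted p = 0.000706) and without a filter on low counts (0.00459). The Hox3 difference was called under 4 of 13, among them without null replicate 1 (adjusted p = 0.00839) and without null replicate 2 (adjusted p = 0.0342). With all mesenchymal cells taken as 1 class, the values were 10.4 and 14.4 CPM (control) and 17.1 and 15.2 CPM (null). Hox3 cells, which held less Cyp26a1, were a larger share of that class in the null libraries. The part of this makeup was not tested.

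Cyp26b1, which encodes a second degrading enzyme known from the hindbrain, was mainly a neural gene. Neural progenitors held 26.2 and 35.5 CPM (control) and 26.1 and 25.3 CPM (null) at E10.5, where mesenchymal cells held 1.86 to 4.28 CPM. The difference was 8.66-fold (log2 3.11 ± 0.17 SE, adjusted p = 3.69e-06). Neural progenitors held 0.853 CPM at E8.5 and 11.7 and 14.5 CPM at E9.5. The days were not compared by a test, the E8.5 library used another kit, and the class held other cells, with 1339 of 1401 Hox-negative at E8.5 and 949 of 1204 with a Hox3 UMI in control replicate 1 at E10.5. Neuronal cells at E10.5 overlapped with neural progenitors, at 15.4 to 27.7 CPM, and the 3 mesenchymal classes and Sox10 cells overlapped with each other below them.

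In Hoxa2-only mesenchyme, Cyp26b1 stood at 5.74 and 5.46 CPM (control) and at 0.993 and 2.47 CPM (null) at E10.5, with 21 and 9 UMIs behind the null values. The 4.29-fold difference was not called (log2 -2.10 ± 0.43 SE, adjusted p = 0.153). It was called under 4 of 13 alternatives, with DESeq2 (adjusted p = 0.0335), without a filter on low counts (8.81e-05), with the replicate number as a block (0.000158) and without null replicate 2 (0.00164). In Hox3 cells the genotypes lay closer, at 2.81 and 3.54 CPM (control) and 2.52 and 2.91 CPM (null). The test of the difference itself found a genotype effect that was larger by 1.86 ± 0.36 (SE) on the log2 scale in Hox3 than in Hoxa2-only cells, meaning less of a fall (adjusted p = 0.0319). It was the 1 of 9 genes called there, where 1.15% of 14301 genes were called. The call was lost under 6 of 11 alternatives, namely without control replicate 1 (adjusted p = 0.531), control replicate 2 (0.315) or null replicate 1 (0.36), with DESeq2 (0.377), after thinning (0.323) and with a gate of 3 UMIs (0.052). At E9.5 the order of the genotypes in Hoxa2-only cells was the opposite, with 13.9 CPM in the null library (215 UMIs, exact 95% interval 12.1 to 15.9) and 5.95 CPM in the control (92 UMIs, 4.796 to 7.30).

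Cyp26c1, the third degrading enzyme, was practically not detected. In 52 sums of a library and a class it gave 11 UMIs in all, spread over 8 sums, and the highest of its levels was 0.181 CPM. A sum with a count of 0 allowed up to 0.0299 CPM in the largest class and up to 1.86 CPM in the smallest. The gene could not be fitted in any comparison, which leaves 9 of the 10 genes in the tests.

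Crabp1, which encodes a retinoic acid carrier and is a familiar marker of migrating neural crest, fell steeply in the mesenchyme as development went on. In Hox3 cells it went from 3539 (control) and 2906 CPM (null) at E9.5 to 318 and 595 CPM (control) and 1093 and 719 CPM (null) at E10.5. The fall was 6.73-fold (log2 -2.75 ± 0.35 SE, adjusted p = 0.0011) in Hox3 and 5.33-fold (-2.41 ± 0.29 SE, adjusted p = 0.00287) in Hoxa2-only cells, and every alternative called both. Neuronal cells kept it at 3912 to 8698 CPM at E10.5, above every other class. Neural progenitors held 763 to 1767 CPM and exceeded mesenchyme 2.30-fold (adjusted p = 0.0004).

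At E10.5 the null libraries held more Crabp1 than the controls in all 3 mesenchymal classes, with no overlap, again in classes of the same libraries. The paper lists fewer somites for null replicate 1 than for the control pools, and not for null replicate 2. The part of this in the difference was not tested. All mesenchymal cells together held 288 and 442 CPM (control) and 843 and 722 CPM (null), a 1.96-fold difference that was not called (adjusted p = 0.308). Hox3 cells were a larger share of all mesenchymal cells in the null libraries, and the part of that was not tested. By class the difference was 1.55-fold (Hox-negative, adjusted p = 0.249), 1.83-fold (Hoxa2-only, 0.335) and 1.83-fold (Hox3, 0.441). In Hox3 cells it was called without null replicate 2 (log2 1.20, adjusted p = 3.86e-05), the library with the neuronal markers in its mesenchyme. In Hoxa2-only cells it was called without null replicate 1 (log2 1.04, adjusted p = 0.0218) and with the replicate number as a block (0.0379). Sox10 cells ran from 259 and 476 CPM (control) to 1368 and 468 CPM (null) and overlapped, since null replicate 2 lay among the controls. The 2.49-fold difference there had an adjusted p of 0.21, and was called under 3 of 13 alternatives, without null replicate 2 (2.32e-09), without control replicate 2 (0.0217) and without a filter on low counts (8.79e-05). At E9.5 the null library lay below the control in each mesenchymal class, at 713 against 857 CPM (Hox-negative), 1726 against 2078 CPM (Hoxa2-only) and 2906 against 3539 CPM (Hox3).

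Crabp2, which encodes the carrier that hands retinoic acid to the receptors, was higher in neural progenitors than in mesenchyme (2.15-fold, adjusted p = 5.94e-05) and in Sox10 cells (1.51-fold above mesenchyme, adjusted p = 0.00362). All mesenchymal cells held 309 and 322 CPM (control) and 511 and 461 CPM (null) at E10.5, so that the null libraries lay above the controls. None of the 6 genotype tests called it, with adjusted p of 0.316 in Hox-negative and 0.311 in Sox10 cells. Without null replicate 2, the Sox10 difference was called (adjusted p = 3.79e-05), the 1 of 13 alternatives that did so. At E9.5 the null library was also above the control in mesenchyme, at 305 against 267 CPM. The step from Hoxa2-only to Hox3 cells was small but steady, with a 1.14-fold higher level (log2 0.19 ± 0.03 SE, adjusted p = 0.00538) under all 11 alternatives.

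Rarg and Rarb were highest in different classes. Rarg marked the mesenchyme, with 37.6 and 37.0 CPM (control) and 39.4 and 29.0 CPM (null) in all mesenchymal cells at E10.5, and 0.174 to 0.629 CPM in neural progenitors. The difference was 85.6-fold (log2 -6.42 ± 0.16 SE, adjusted p = 1.6e-07), with 1 to 18 UMIs behind the neural values. Sox10 cells were intermediate at 3.35 to 9.36 CPM and overlapped with neither. Rarb ran the other way, with 20.5 and 14.8 CPM (control) and 21.2 and 24.6 CPM (null) in neural progenitors, 3.63-fold above mesenchyme (adjusted p = 1.23e-05). Within neural progenitors, Hox3 cells held 15.4 to 25.3 CPM in the 4 libraries, Hoxa2-only cells 4.76 to 4.77 CPM in the 2 libraries with 50 or more of them, and Hox-negative cells 5.21, 11.04 and 8.09 CPM in 3 libraries. These differences were not tested. Mesenchyme had a smaller share of Hox3 cells than neural progenitors, and the part of this in the 3.63-fold difference was not tested.

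In the mesenchyme Rarb was also higher in Hox3 than in Hoxa2-only cells, with Hox-negative cells between them at 4.97 to 6.17 CPM, overlapping with Hoxa2-only cells through null replicate 2. Hoxa2-only cells held 2.47 and 2.15 CPM (control) and 2.74 and 8.24 CPM (null), and Hox3 cells 6.32, 8.69, 6.78 and 8.31 CPM. The difference was 2.52-fold (log2 1.33 ± 0.24 SE, adjusted p = 0.00817). Null replicate 2 showed almost none of it, with 30 UMIs behind its 8.24 CPM, and the call was lost without control replicate 1 (adjusted p = 0.0656) or control replicate 2 (0.0549). Between E9.5 and E10.5 Rarb rose 3.502-fold in Hoxa2-only cells (adjusted p = 0.0394, and 0.0936 or 0.0829 without control replicate 1 or 2). Rarg rose 1.67-fold in the same cells (adjusted p = 0.042), a call also lost without control replicate 1 (0.121) or 2 (0.102). The Rarb rise was called under 8 of 11 alternatives and the Rarg rise under 8 of 12. In Hox3 cells Rarg was 1.28-fold lower than in Hoxa2-only cells (adjusted p = 0.00822), called under 8 of 11 alternatives. After thinning, which also put cells into classes again, the log2 difference was -0.07 (adjusted p = 0.845).

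Rara was the least restricted receptor, with every pair of classes that were neighbours in level overlapping. It was 1.44-fold higher in Hox3 than in Hoxa2-only cells (adjusted p = 0.000919), 1.41-fold higher in Sox10 cells than in mesenchyme (0.000558) and 1.44-fold higher in neural progenitors (0.000226), and these calls held under all 11 alternatives of each. Null replicate 2 held the most Rara in each of 6 classes, from 39.0 CPM in Hoxa2-only mesenchyme to 76.6 CPM in neuronal cells, which was 1.32 to 1.73 times the highest of the other 3 libraries at E10.5. Null replicate 1 lay above both controls in Hox-negative cells (27.5 against 20.5 and 24.5 CPM), Hox3 cells (33.6 against 26.7 and 32.6 CPM) and Sox10 cells (43.8 against 29.5 and 39.8 CPM), and between them in Hoxa2-only cells (20.7 against 20.05 and 22.5 CPM), neural progenitors (39.3 against 34.4 and 42.3 CPM) and neuronal cells (52.2 against 45.3 and 58.0 CPM). No genotype test called Rara.

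Across genotypes at E10.5, the data thus held 1 called difference among the 6 tests, that of Aldh1a2 in Hox-negative cells. The tests had 2 libraries a side and called few genes of any kind, with 0.177% of 15221 genes in all mesenchymal cells, 0.193% of 13450 in Hoxa2-only cells, 0.0363% of 13760 in Hox3 cells and 0.301% of 11292 in Sox10 cells. In neural progenitors edgeR called 0 of 13023 genes (0%), with 970 at an unadjusted p under 0.05, and DESeq2 called 25. In simulated data of the same size, a 2-fold change was recovered for 29% of 200 changed genes in Hox-negative and for 8.5% in Hoxa2-only cells. A missed threshold does not show that a gene was the same in both genotypes. For Rdh10 in Hox3 cells, the interval ran from -0.41 to 0.55 on the log2 scale, and for Aldh1a2 in the same cells from -0.29 to 2.93.

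**Figure D2:**
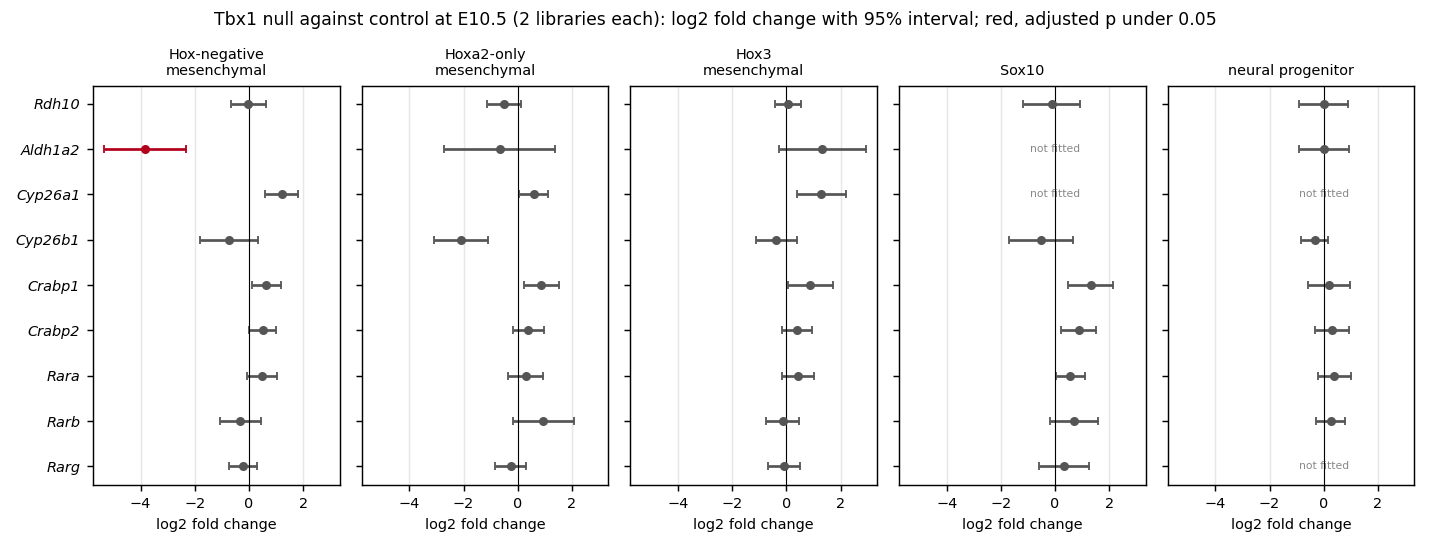
Log2 fold change (Tbx1 null over control, 2 libraries each at E10.5) of 9 genes in 5 cell classes, with 95% intervals, red where the adjusted p was under 0.05. Aldh1a2 in Hox-negative mesenchyme is the only red point, and Cyp26a1 and Crabp1 lie to the right of 0 in all 3 mesenchymal panels.

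Hox3 and Hoxa2-only cells of the same libraries were compared next. Hox3 cells had more Rdh10, Aldh1a2, Crabp2, Rara and Rarb than Hoxa2-only cells, and less Cyp26a1 and Rarg. These were 5 higher and 2 lower of 9 genes, with 10.2% of 14301 genes called in this comparison. Crabp1 (1.33-fold higher, adjusted p = 0.0931, called under 3 of 11 alternatives) and Cyp26b1 were not called. The median log2 difference of the 9 genes was 0.41, and that of all genes tested was -0.02. The classes were cut by Hox UMIs, so that a cell whose Hox3 transcripts were missed was counted as Hoxa2-only, or as Hox-negative where Hoxa2 gave no UMI either.

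**Figure D3:**
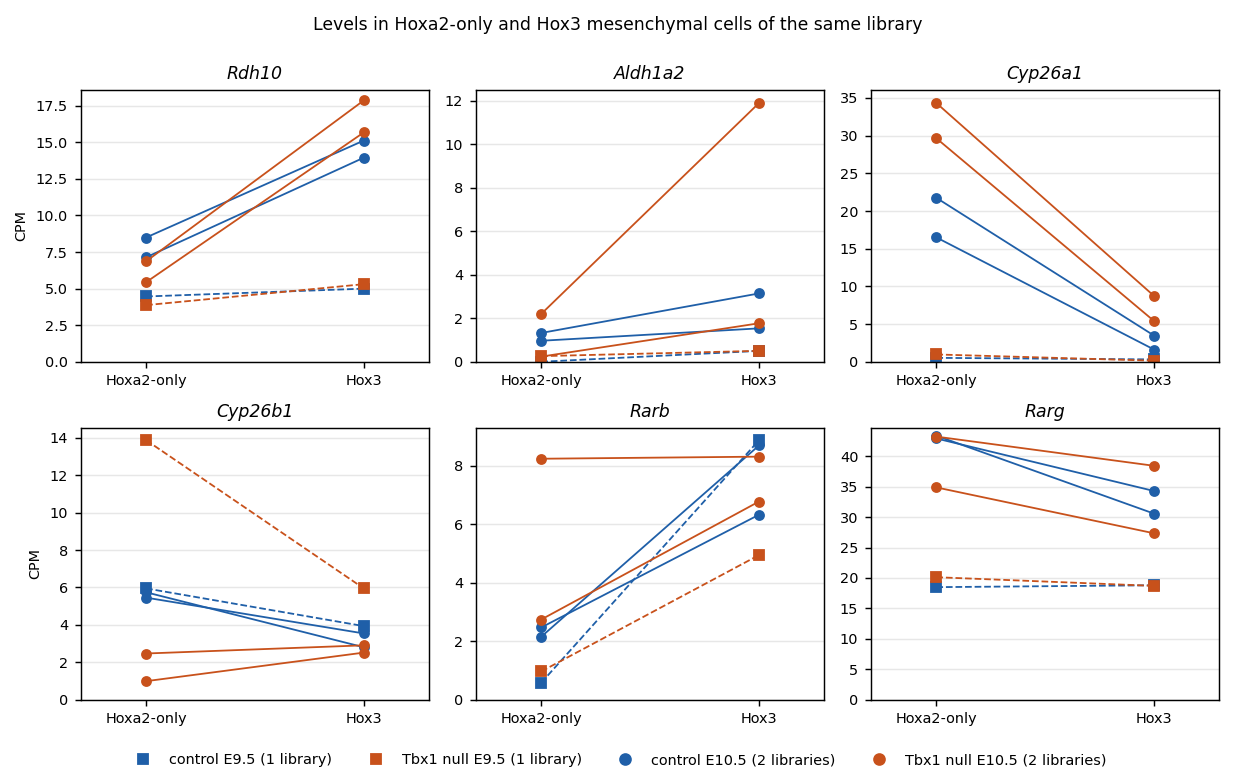
CPM of 6 genes in Hoxa2-only and Hox3 mesenchymal cells, with lines joining the 2 classes of 1 library, solid at E10.5 and dashed at E9.5. At E10.5 Rdh10 rises and Cyp26a1 and Rarg fall along every line, and the Rarb line of null replicate 2 is nearly flat.

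Over time, Hoxa2-only cells gained Cyp26a1, Rarb and Rarg and lost Crabp1 (3 higher and 1 lower of 9 genes, where 14.9% of 13270 genes were called). Hox3 cells gained Cyp26a1, Rdh10 and Aldh1a2 and lost Crabp1 and Cyp26b1 (3 higher and 2 lower of 9, where 26% of 13484 genes were called). Rdh10 in Hox3 cells went from 5.00 and 5.30 CPM at E9.5 to 14.0 to 17.9 CPM, a 2.30-fold rise (adjusted p = 0.0034) under every alternative. The rise of Aldh1a2 there was 5.88-fold (adjusted p = 0.0477), from 0.500 and 0.502 CPM, and was lost without control replicate 1 (adjusted p = 0.091) or 2 (0.0559), with 200 genes and 5% as cell limits (0.0596) and with no cells excluded from the mesenchymal gate (0.119). The fall of Cyp26b1 there was 2.19-fold (adjusted p = 0.0173), and was lost without control replicate 1 (0.0535) and with no cells excluded from the mesenchymal gate (0.0728). Its level there went from 3.94 to 2.81 and 3.54 CPM in the control and from 5.95 to 2.52 and 2.91 CPM in the null libraries. In Hoxa2-only cells its 4.06-fold lower level was not called (adjusted p = 0.0546) but was called under 6 of 12 alternatives (adjusted p from 3.78e-09 to 0.109 over all 12), with 5.95 CPM at E9.5 against 5.74 and 5.46 CPM at E10.5 in the control and 13.9 against 0.993 and 2.47 CPM in the null libraries. Whether the change with the day differed between genotypes was not tested. The day and the dissection changed together, and their parts cannot be told apart. The E8.5 library, of another kit, was kept out of these tests.

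**Figure D4:**
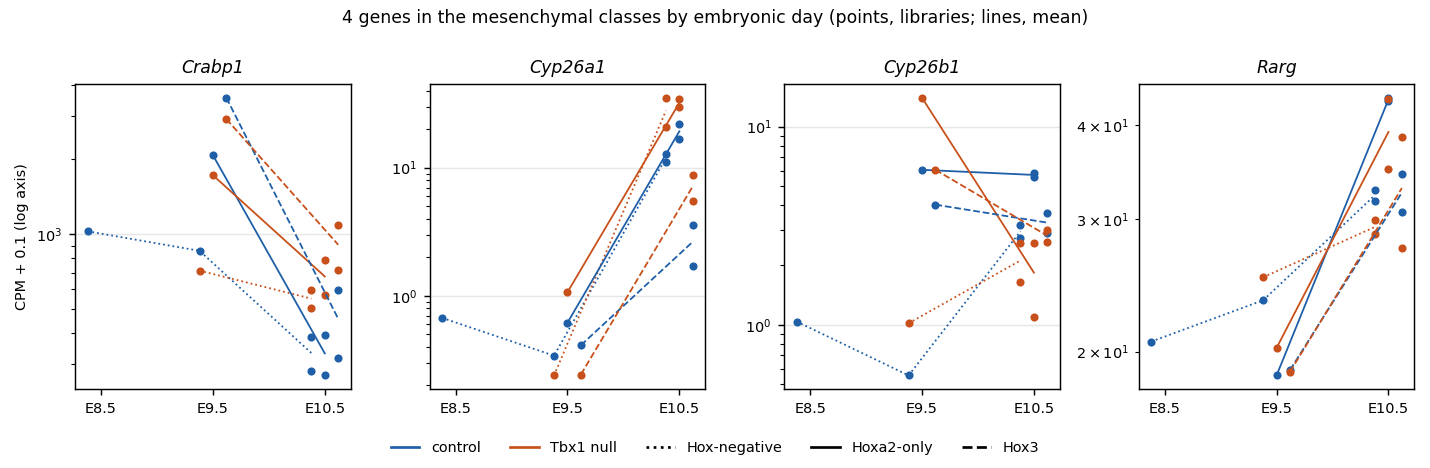
CPM (plus 0.1, log axis) of 4 genes in the 3 mesenchymal classes by embryonic day, with points for libraries and lines through the mean of each genotype, shifted sideways by class. Crabp1 falls and Cyp26a1 rises from E9.5 to E10.5 in both genotypes, and the order of the genotypes for Crabp1 is opposite on the 2 days.

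Pairs of the genes were also counted in single cells. For each pair, the cells with a UMI of both were compared with the number that the 2 shares give in the same library and class, over the 4 libraries at E10.5. Pairs are described that differed by over 1.5 times after thinning to 5000 UMIs and on the same side in each of the 4 libraries, with and without thinning, a rule set after the values were seen. Of 168 combinations of a pair and a class with 5 or more expected cells after thinning, 11 met it. The counts given here are those without thinning, summed over the 4 libraries, where a ratio can be nearer to 1. Rdh10 and Cyp26a1 met in 101 mesenchymal cells where 196 were expected, and in 66 against 102 within the Hoxa2-only class. Aldh1a2 and Cyp26a1 met in 10 mesenchymal cells against 39.2 expected, and Cyp26a1 and Rarb in 35 against 110. These shortfalls over all mesenchymal cells hold the difference between Hoxa2-only and Hox3 cells in them. Not all pairs of a synthesis and a degradation gene fell short. Rdh10 and Cyp26b1 met in 112 mesenchymal cells against 80.3 expected, above expectation in each of the 4 libraries and just short of the rule, and in 31 neural progenitors against 32.3. In neural progenitors, Aldh1a2 and Cyp26b1 met in 0 cells against 17.0 expected, Rdh10 and Rarb in 32 against 53.2, and Cyp26b1 and Rarb in 32 against 144. Neural progenitors were not divided by Hox for these counts, although Rdh10 and Rarb differed between their Hox classes. The part of this in the shortfalls was not tested. Cyp26b1 and Crabp1 were the 1 combination of the 11 above expectation, with 598 such cells against 466. In null replicate 2 alone, they met in 106 cells against 103 expected. Most cells with a low gene's transcript give no UMI of it, so these numbers describe which cells were counted and not which cells express.

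**Figure D5:**
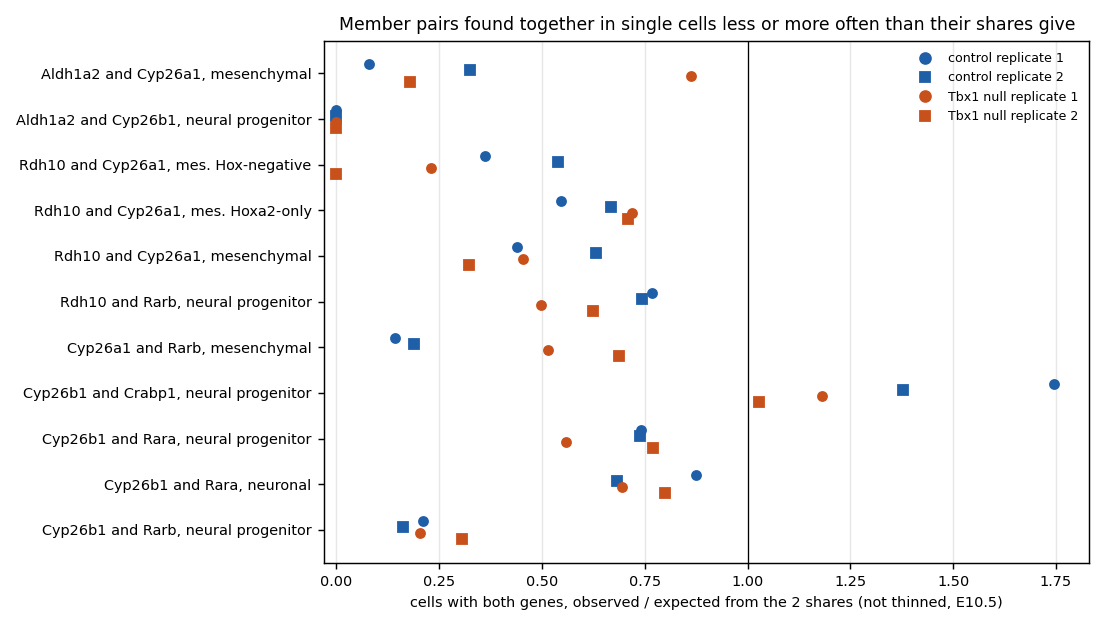
Cells with a UMI of both genes divided by the number expected from the 2 shares, not thinned, for the 11 combinations of a pair and a class, with 1 point per library at E10.5. All points of 10 combinations lie left of 1, and those of Cyp26b1 and Crabp1 in neural progenitors lie right of it.

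Other genes of the pathway were read from 3 lists. Uptake and metabolism has 16 genes, partners and coregulators 9, and known targets 16, and 0 genes of any list were called in any of the 6 genotype tests by edgeR. Between Hox3 and Hoxa2-only mesenchyme, 6 targets were higher and 4 lower of 14 fitted, where 10.2% of all genes were called. The largest were Hoxd4 (log2 5.00), Hoxb4 (4.61) and Hoxa4 (4.11), which neighbour the Hox3 genes of the gate. Tgm2 (-2.08), which encodes a transglutaminase, and the nuclear receptor genes Nr2f1 (-0.59) and Nr2f2 (-0.33) were lower. Of the uptake genes 3 were higher and 2 lower of 12, with the alcohol dehydrogenase gene Adh1 (2.84) and the retinol transporter gene Stra6 (0.70) among the higher, and Dhrs3 (-0.75), whose product turns retinaldehyde back to retinol, and Fabp5 (-0.18) lower. None of the 9 partners was called there, with the same test.

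Against mesenchyme, Sox10 cells had 8 targets higher and 3 lower of 14 (43.8% of all genes called), with Tgm2 (log2 2.35) and Hoxb5 (2.20) higher and Rarres2 (-3.14) and Meis2 (-2.97) lower. The retinoid X receptor gene Rxrg was far higher (4.61), and Rbp4 (-2.85) lower. Neural progenitors had 9 targets higher and 5 lower of 15 (54.8% of all genes called), with Hoxb1 (4.96), Hoxa5 (3.81) and Hoxb5 (3.51) higher and Rarres2 (-5.97) lower. Stra6 (-3.97) was lower there. Sox10 cells and neural progenitors both had a larger share of cells with a Hox3 UMI than mesenchyme, and the part of this was not tested. With the day, Stra6 rose in both Hoxa2-only (3.11) and Hox3 cells (3.03), and Aldh1a3, which encodes another retinaldehyde dehydrogenase, fell (-1.59 and -2.22). In Hox3 cells 6 of 13 targets rose and 0 fell (26% of all genes called), led by Rarres2 (3.97), Hoxa4 (3.13) and Hoxb5 (2.72). In Hoxa2-only cells 3 of 13 rose (14.9% of all genes called), namely Cdx1 (4.30), Rarres2 (1.44) and Meis1 (0.74). Ncoa1, a coactivator gene, rose in both (1.67 and 1.80). The genotype effect differed between Hox3 and Hoxa2-only cells for 4 of 14 targets and 1 of 9 partners (1.15% of all genes called), namely Nr2f2 (0.43), Meis1 (0.38), Hoxb5 (-3.49), Rarres2 (-1.06) and the corepressor gene Nrip1 (-0.69). This test called 165 genes in all, 13 or 15 without control replicate 1 or 2, and 656 or 705 without null replicate 1 or 2. All log2 values of this and the preceding paragraph had an adjusted p under 0.05 in edgeR.

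The genes most like each member over 40 sums of a class and a library (Pearson r of log2 of CPM plus 1, among genes reaching 20 CPM) were given by a fixed number of 3. The sums share libraries and depth, and r is a description. Rarg was followed most closely, by Foxc1 (0.96), Dse (0.96) and Bgn (0.95), and Cyp26a1 by Pax9 (0.92), Lrrc17 (0.92) and Islr (0.91). Rarb was closest to Tshz3 (0.89), Col4a5 (0.87) and the long noncoding RNA gene Haglr (0.87), and Cyp26b1 to Fat3 (0.88), Adcyap1r1 (0.86) and Gm29478 (0.86). Rdh10 was closest to Sulf1 (0.84), Bmp4 (0.82) and Bdnf (0.82). For Rara they were AC149090.1 (0.86), Os9 (0.86) and Aplp2 (0.85), for Crabp2 Taldo1 (0.81), Ormdl1 (0.81) and 2610301B20Rik (0.80), and for Crabp1 Hoxb1 (0.79), Rgs16 (0.75) and Tmem199 (0.74). Aldh1a2 had no close companion, with Rdm1 (0.67), Coil (0.64) and Pih1d1 (0.64) at the top. Cyp26c1 was too low to be compared.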

How the data were processed

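Raw counts of UMIs per gene and barcode were used as the authors deposited them, made with Cell Ranger 6.0.1 on mm10 per the labels. Barcodes under 1000 genes or above 10% mitochondrial UMIs were dropped, and the highest doublet scores (0.8% per 1000 barcodes; scanpy 1.11.5) were removed. UMIs were summed per library and class with at least 50 cells. Sums were tested with edgeR 4.0.16 (quasi-likelihood test, TMM, filterByExpr, Benjamini-Hochberg adjustment over all genes, threshold 0.05). Classes were compared with the library as a block, and stages with genotype as a covariate. Intervals (95%, exact Poisson or Clopper-Pearson) and the floor of 3 counts cover counting error only. Shares were compared after thinning to 5000 UMIs per cell, with the classes kept from the full counts. In the tests after thinning, cells were put into classes again from the thinned counts. A call lost there can thus come from depth or from changed classes, which cannot be told apart. The code was tested on simulated data. The members and lists were chosen with earlier results of these data known. Named were all members and, per list, up to 3 called genes in each direction with the largest change. Some list genes that met this rule are not reported here. Alternatives were DESeq2 1.42.0, its size factors, no filter, other gates and cell filters, doublets kept, thinning, a replicate block, E9.5 libraries added and each library left out.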

Additional observations from a re-analysis of the deposited data

Results flagged for a closer look

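Cyp26b1 was singled out because its genotype effect at E10.5 differed between mesenchymal classes by test, by 1.86 on the log2 scale in Hox3 against Hoxa2-only cells (edgeR adjusted p = 0.0319, 2 libraries per genotype). It was called under 5 of 11 alternatives.

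In 6 further combinations of a gene and a single class, the null library lay on one side of the control at E9.5, with exact intervals that did not overlap. Both null libraries lay on the other side of both controls at E10.5. Combinations whose intervals overlapped at E9.5, such as Cyp26a1 in Hox3 mesenchyme, were left out of this count. The intervals cover counting error only, and the share of all genes that reversed so was not counted. The 6 reversals were not tested, and E9.5 has 1 library per genotype, each of another kit version. The E9.5 null level was 0.917 CPM for Cyp26b1 in Hox-negative and 13.9 CPM in Hoxa2-only mesenchyme, above the control, with the null libraries below the controls at E10.5. For Crabp1 it was 713 CPM in Hox-negative, 1726 CPM in Hoxa2-only and 2906 CPM in Hox3 mesenchyme, and for Crabp2 1190 CPM in Sox10 cells, below the control, with the null libraries above the controls at E10.5. With all mesenchymal cells as 1 class, Cyp26b1, Crabp1 and Rarb reversed too by the same rule, which was not tested either. Rarb held 1.93 CPM (control) and 1.32 CPM (null) at E9.5, and 4.41 and 4.98 CPM (control) and 5.11 and 7.98 CPM (null) at E10.5. Hox3 cells were 599 of 4076 (control) and 612 of 5784 (null) mesenchymal cells at E9.5. Their share was larger in the null libraries at E10.5, and the part of this makeup was not tested.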

How the results depend on the processing

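Of 33 calls of a member, 23 held in every alternative and 10 were lost in at least 1. Counts of called genes in the genotype tests moved widely, and the cause was not tested. In the order all mesenchymal, Hox-negative, Hoxa2-only, Hox3, Sox10 and neural progenitor cells, no filter on low counts gave 676, 534, 547, 383, 212 and 136 genes, and the replicate block 312, 704, 642, 374, 306 and 182. The replicate numbers were not shown to pair the libraries, since there are only 2 pairs (correlation of same-numbered deviations 0.145 to 0.281). Adding the E9.5 libraries gave 2, 3, 4, 2 and 1 in the first 5. DESeq2 gave 264 (all mesenchymal), 186 (Hoxa2-only), 77 (Hox3) and 25 (neural), and its size factors gave 15 (Hoxa2-only). Thinning gave 16, 63, 44 and 33 in the mesenchymal tests and 25 in neural cells. The filter of 200 genes and 5% gave 13 (all mesenchymal), 11 (Hoxa2-only) and 3 (Hox3). Keeping doublets gave 10, 53, 15 and 3 in the mesenchymal tests. The gate of 3 UMIs gave 25 (Hox-negative) and 16 (Sox10), and mesenchyme without exclusions gave 16 (all), 182 (Hox-negative) and 40 (Hoxa2-only).

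Leaving out 1 library gave 144 to 445, 26 to 179, 78 to 956, 14 to 1443, 60 to 582 and 61 to 162 in the 6 genotype tests. It gave 510 to 2055 between Hox3 and Hoxa2-only cells, 715 to 4105 and 1885 to 5231 for the stages in Hoxa2-only and Hox3 cells, and 13 to 705 for the difference of the genotype effect. The lone library of a group is then assumed to vary like the others. Thinning gave 683 between Hox3 and Hoxa2-only cells, 3657 between Sox10 and mesenchymal cells, and 1309 and 1883 for the stages. No filter gave 3220 for the stage in Hoxa2-only cells. The difference of the genotype effect gave 84 (DESeq2), 592 (no filter) and 80 (thinned), and its alternatives were chosen after seeing the data. There, Rdh10 turned from 0.62 to -0.16 on the log2 scale after thinning, and neither value was called. Low UMI counts limit Aldh1a2 and Cyp26b1 in null mesenchyme, and Cyp26c1 everywhere.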
